A study of Homo sapiens with 2 samples.

Results

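Shared narrow desert peaks are short stretches of open chromatin that were called in both ATAC-seq libraries and lie far from the start of any protein-coding transcript. They were selected on measured values of the peak lists: a No gRNA peak on chromosomes 1 to 22 or X counted as a member when it overlapped an All gRNA peak by at least 1 bp, was narrower than 600 bp, and had its summit more than 200 kb from every protein-coding transcript start of GENCODE release 44 on hg38. The rule gave 5144 members, 7.58% of the 67868 No gRNA peaks on these chromosomes. Sharing, width and distance were therefore set by the choice and are given as descriptions only.

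In ATAC-seq, the transposase Tn5 cuts open chromatin and attaches sequencing adapters to it. The libraries came from SUM159 cells, a triple negative breast cancer line of the claudin-low, mesenchymal type. In both populations a lentiviral vector expressed dCas9-KRAB, which joins a catalytically dead Cas9 to the KRAB repressor domain. The No gRNA population received it with 0 targeting guides, and the All gRNA population received it with 4 guides directed at the promoter of ZEB1, a repressor of epithelial genes. With 1 library for each condition no test between conditions could be made, and every comparison is of these libraries. Intervals in parentheses are 95% intervals for counting error only.

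Most open sites of a cell that lie away from promoters are enhancer candidates, CTCF-bound sites or starts of non-coding transcripts. Gene deserts are long intervals without protein-coding starts, and those next to developmental transcription factors are known to carry enhancers that act over large distances. AP-1, a family of FOS and JUN dimers, is often found at distal open sites of mesenchymal cells. CTCF holds chromatin loops, and ZEB1 binds the E-box CAGGTG.

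Sequence of hg38, plus strand, is shown for 5 of the highest members, 4 of them chosen for the feature met most often near the members' summits, the AP-1 site TGACTCA or its reverse complement. Each run holds the No gRNA summit and 100 bases to either side, with AP-1 matches in capitals. The first is the highest member in both libraries, whose window holds no match, and the other 4 are the highest members with a match.
IRX1 to ADAMTS16, chr5:4059118-4059318: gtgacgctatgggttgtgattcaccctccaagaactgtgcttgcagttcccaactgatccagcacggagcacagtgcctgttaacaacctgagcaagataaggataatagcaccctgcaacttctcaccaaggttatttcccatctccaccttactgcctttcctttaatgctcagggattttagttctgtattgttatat
GUCY1A2 intron, chr11:106706498-106706698: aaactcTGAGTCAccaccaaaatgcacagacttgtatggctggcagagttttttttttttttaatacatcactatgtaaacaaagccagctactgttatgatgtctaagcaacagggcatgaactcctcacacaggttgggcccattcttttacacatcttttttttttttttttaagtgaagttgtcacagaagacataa
PIK3R1 to SLC30A5, chr5:68683784-68683984: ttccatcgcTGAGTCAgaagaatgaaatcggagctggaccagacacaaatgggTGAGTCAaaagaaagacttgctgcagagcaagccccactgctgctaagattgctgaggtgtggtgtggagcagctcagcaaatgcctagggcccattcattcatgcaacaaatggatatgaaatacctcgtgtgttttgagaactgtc
KCNJ2 to SOX9, chr17:71071987-71072187: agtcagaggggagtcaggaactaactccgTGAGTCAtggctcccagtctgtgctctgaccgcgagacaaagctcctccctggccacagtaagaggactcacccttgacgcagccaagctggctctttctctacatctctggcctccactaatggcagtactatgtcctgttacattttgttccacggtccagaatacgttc
CAMTA1 intron, chr1:7401947-7402147: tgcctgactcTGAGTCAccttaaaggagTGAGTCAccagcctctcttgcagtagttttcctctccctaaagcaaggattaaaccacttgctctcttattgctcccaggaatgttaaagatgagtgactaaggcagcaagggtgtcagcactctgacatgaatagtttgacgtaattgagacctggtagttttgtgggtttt

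The AP-1 matches in these 4 members stand in the left part of the window, at lower coordinates than the summit. The member between PIK3R1, a regulatory subunit of phosphoinositide 3-kinase, and the zinc transporter gene SLC30A5 had a No gRNA fold of 27.6 and an All gRNA fold of 20.2. The member between the potassium channel gene KCNJ2 and SOX9, a transcription factor of cartilage and epithelial progenitors, had folds of 27.6 and 23.0. It lay 903 kb from KCNJ2 and 1049 kb from SOX9. The windows of the 2 highest members with a match to the CTCF core consensus are shown next, with the match in capitals, because such matches were rare among the members.
H3Y1 to CDH18, chr5:18698631-18698831: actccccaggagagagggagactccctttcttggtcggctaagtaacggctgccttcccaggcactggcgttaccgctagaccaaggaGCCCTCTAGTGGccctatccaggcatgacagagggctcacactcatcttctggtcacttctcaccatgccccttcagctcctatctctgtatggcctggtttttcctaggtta
ZNF337 to DEFB115, chr20:30585410-30585610: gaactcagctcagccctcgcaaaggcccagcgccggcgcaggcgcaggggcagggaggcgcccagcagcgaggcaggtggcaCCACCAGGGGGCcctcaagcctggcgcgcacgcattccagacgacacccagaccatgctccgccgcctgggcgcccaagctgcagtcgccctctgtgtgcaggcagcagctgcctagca

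The fold of a peak is the pileup of reads at its summit over the local background, each with 1 read added, as the authors' peak caller wrote it. The summit pileup in reads was solved from the deposited fold and −log10 p. The No gRNA list held 74757 peaks and the All gRNA list 75217, and the lowest background of 0.652 reads in No gRNA and 0.484 in All gRNA gave a depth ratio of 0.743. For equal depth-scaled pileup and background, the added read gives a lower fold in All gRNA, the library of lower depth. Folds of both libraries therefore describe heights and do not measure a change between the libraries. The median member was 333 bp wide, with quartiles of 262 and 427 bp, and lay 373 kb from the nearest protein-coding start. The farthest lay 5393 kb away, and 482 members lay over 1 Mb from any such start. The median fold was 9.08 in No gRNA, with quartiles of 6.66 and 12.7 and a range of 2.56 to 32.4. In All gRNA the median was 8.13, with quartiles of 6.06 and 11.0 and a range of 2.99 to 29.6. These heights were close to those of the 21463 shared narrow peaks 10 to 200 kb from a start, called nearer peaks here, whose medians were 9.13 and 8.08. The median −log10 q was 14.1 in No gRNA and 11.3 in All gRNA for the members. The median summit pileup was 17 reads in No gRNA and 13 in All gRNA for the members, against 19 and 14 for the nearer peaks. The 7059 shared narrow peaks up to 1 kb from a start, called promoter peaks here, had median pileups of 35 and 24 reads. The background was lower around the members: 31.3% of them stood on the lowest background the caller uses in No gRNA, against 22.9% of the nearer peaks.

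At the limits of the rule, the widest members, on chromosome 2, measured 599 bp with No gRNA folds of 11.0 and 10.6 and All gRNA folds of 10.3 and 12.5. The first peaks left out by width, on chromosomes 4 and 20, measured 600 bp with folds of 18.7 and 18.1 in No gRNA and 12.7 and 11.9 in All gRNA. The members closest to a start lay 200.015 kb from IL1RAPL1 and 200.019 kb from PLK2, with No gRNA folds of 15.7 and 15.0 and All gRNA folds of 13.6 and 17.5. The first peaks left out lay 199.953 kb from GAP43 and 199.925 kb from IGSF1, with No gRNA folds of 6.05 and 8.95 and All gRNA folds of 6.74 and 5.84. A further 663 shared desert peaks were 600 bp or wider.

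Of the 7503 narrow desert peaks of the No gRNA list, 68.6% overlapped an All gRNA peak. The share was 70.6% over all 56516 narrow peaks on these chromosomes and 69.5% for nearer peaks, so the desert share was near the background. The Wilson interval of the desert share was 67.5 to 69.6%. Narrow desert peaks of the No gRNA list without an All gRNA partner were lower, with a median fold of 6.05 and a median pileup of 10 reads. Seen from the All gRNA list, 65.0% of 8262 narrow desert peaks overlapped a No gRNA peak.

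The name gene desert held only in part. Although every summit was over 200 kb from a protein-coding start, 747 members, 14.5% (13.6 to 15.5%), lay inside the body of a protein-coding gene. The share was 49.4% for nearer peaks, and 25 members had their summit inside an exon of a protein-coding gene. The gene bodies that held most members were FHIT with 19, CDH13 and NRG1 with 14 each and RBMS3 with 12. FHIT is a very large gene over a common fragile site, CDH13 encodes an atypical cadherin, NRG1 a ligand of ERBB receptors and RBMS3 an RNA-binding protein. The No gRNA folds in FHIT reached 19.8 and the All gRNA folds 16.1. When the starts of all transcripts of protein-coding genes were used in place of protein-coding transcripts alone, a choice made after seeing the data, 4396 members remained and 7.26% lay inside a gene body.

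Long non-coding RNA genes covered a larger part of the members. A total of 1779 members, 34.6% (33.3 to 35.9%), lay inside the body of such a gene, against 19.9% of nearer peaks, and 52.4% lay in neither kind of gene body. Only 255 members, 4.96% (4.40 to 5.58%), had their summit within 1 kb of a long non-coding RNA start, a share whose interval covers the 5.03% of nearer peaks. Host genes with most members were PCAT1 with 18, PKN2-AS1 and LINC00511 with 15 each, and PVT1 and LINC00299 with 14 each. The No gRNA folds reached 16.1 in PCAT1, 25.5 in PVT1 and 19.7 in LINC00299.

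Stretches over 200 kb from every protein-coding start numbered 1290, added up to 784 Mb without gaps in the assembly, and made up 26.9% of the sequenced bases of these chromosomes. Members occurred at 6.56 per Mb of this sequence, against 16.3 shared narrow peaks per Mb outside it, promoter peaks included. Nearer peaks alone, 10 to 200 kb from a start, came to 10.1 per Mb outside it. A member was found in 883 stretches, and the 171 stretches with 10 or more members held 2602 of them. Of the 234 stretches of at least 1 Mb, 16 held no member. The longest of these, with 5.85 Mb between ZNF716 and ZNF722 on chromosome 7 and 4.94 Mb between ZXDA and SPIN4 on chromosome X, lie around centromeres. Among the 21 chromosomes with at least 50 members, the density ran from 3.57 per Mb on chromosome X and 3.84 on chromosome 16 to 8.35 on chromosome 5 and 9.04 on chromosome 6. Chromosome 19 held 3 members in 5.79 Mb, a density of 0.518 per Mb.

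**Figure D1:**
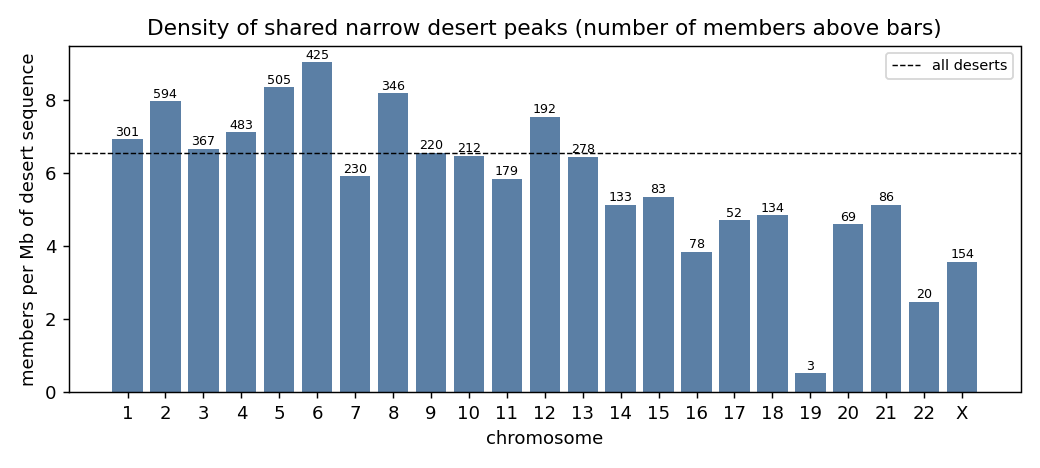
Members per Mb of sequence over 200 kb from every protein-coding start, by chromosome, with the number of members above each bar and the density over all such sequence (6.56 per Mb) as a dashed line. Chromosome 6 stood highest at 9.04 per Mb with 425 members, chromosome 2 held most members with 594, and chromosome 19 stood lowest.

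The interval between TMEM132B and TMEM132C on chromosome 12, 2 genes for transmembrane proteins, held 42 members at 18.7 per Mb, the largest number between any pair of neighbouring protein-coding genes. Their folds ran from 3.98 to 26.7 in No gRNA and from 3.80 to 21.7 in All gRNA. MAT2B to TENM2 on chromosome 5 held 36 members with a median No gRNA fold of 8.32. Intervals with 31 members were ZEB2 to ACVR2A, PCDH7 to ARAP2, and CFAP20DC to FHIT. ZEB2, a relative of ZEB1 that also promotes the mesenchymal state, had its 31 members between 314 and 2661 kb from its starts, with a median fold of 9.90 for No gRNA and 8.43 for All gRNA. ACVR2A encodes an activin receptor, PCDH7 a protocadherin, and TENM2 a teneurin of neural adhesion.

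CELF4 to PIK3C3 and CITED2 to GJE1 held 30 members each, AGA to TENM3 held 29, and CDH9 to CDH6, CTNNA2 to SUCLG1 and MAP3K7 to EPHA7 held 27 each. The median depth-scaled log2 ratio of summit pileup, All gRNA to No gRNA, was 0.28 in the CTNNA2 to SUCLG1 interval and 0.24 in the TMEM132B to TMEM132C interval. It was −0.22 in the CDH9 to CDH6 interval, which lies between cadherin genes. Another 30 members lay on chromosome 21 before TPTE, a testis phosphatase gene that has the first protein-coding start there. In 29 of those 30 members, 3 stretches of 32 bases around the summit each occurred at more than 1 place in hg38.

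Flanking genes were taken as the nearest protein-coding start on either side. Of 19618 protein-coding genes, 1496 (7.63%) flanked a member, and 2067 genes stood at the edge of a stretch over 200 kb from every start. Of 38 genes of neural adhesion and synapses, all 38 stood at such an edge, 35 flanked a member and 32 flanked 5 or more. Of 51 developmental transcription factors, 50 stood at an edge, 44 flanked a member and 27 flanked 5 or more. Of 30 EMT and mesenchymal genes, 17 stood at an edge and 13 flanked a member. None of 16 epithelial genes stood at an edge, so none could flank a member. Among all genes at an edge, 72.4% flanked a member and 36.5% flanked 5 or more. The lists were chosen with earlier results of these data known, and the counts were not scaled for the length of the stretches. These shares are therefore descriptions and do not test whether a list is enriched.

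Listed genes with most members beside them were PCDH7 with 51, PCDH9 with 43, CDH9 with 42, CDH18 with 32, ZEB2 with 31, and FLRT2 and TENM3 with 29 each. Most of these encode adhesion proteins of neurons. The counts are not scaled by the length of the stretches. The intervals on either side of PCDH7 held 6.03 and 6.12 members per Mb. AGA to TENM3 held 6.74 and ZEB2 to ACVR2A 10.6, against 6.56 over all such sequence. SOX9 had 28 members, the nearest 250 kb from its start, with No gRNA folds from 4.29 to 27.6. MYC, the proto-oncogene of cell growth, had 21 members, and INHBA, a subunit of activin, had 19. CDH2, the N-cadherin gene, had 16 members with a median fold of 11.7 for No gRNA and 8.31 for All gRNA. Their median depth-scaled log2 ratio of summit pileup was −0.11. TGFBR2 and BMP2 had 13 each, and FN1, the fibronectin gene, had 10. TWIST1 had 6, the nearest at 222 kb. Their median and highest folds equal those of the 6 members inside the body of the gene HDAC9.

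At promoters, a peak within 1 kb of a start was found at 8 of 8 mesenchymal marker genes in No gRNA and at 7 of 8 in All gRNA, the exception being ZEB1 itself, the guides' target. Of 11 epithelial and luminal markers, 5 had such a peak in each library. CDH1, the E-cadherin gene, had none in either library, nor had CLDN3, KRT19, ESR1 and PGR. The luminal factors GATA3 and FOXA1 had a promoter peak in both libraries, as did ERBB2 and EPCAM. For the claudin gene CLDN4 it was called for No gRNA alone, at a fold of 7.87, and for CLDN7 for All gRNA alone, at 4.04. Over all protein-coding genes on these chromosomes, 65.9% had such a peak in No gRNA and 65.0% in All gRNA.

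Many members had another one nearby. The median gap between neighbouring members on a chromosome was 69.4 kb, with quartiles of 19.2 and 252 kb. Joined at gaps of up to 50 kb, 2012 members, 39.1% (37.8 to 40.5%), stood in 499 clusters of 3 or more, 1820 stood alone and 656 groups held 2. Members that stood alone were about as high as those in clusters of 3 or more, with median No gRNA folds of 9.29 and 9.08. The share in clusters moved with the gap allowed, to 17.7% at 20 kb and 61.6% at 100 kb.

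Both of the largest clusters, with 15 members each, lay on either side of MYC. One spanned 232 kb, chr8:127970333-128202286, and 14 of its members lay in the long non-coding RNA gene PVT1. The other spanned 167 kb, chr8:126926271-127093331, between LRATD2 and POU5F1B, over the long non-coding RNA gene PCAT1. In the PVT1 cluster the highest member, chr8:128108940-128109522, had a pileup of 731 reads in No gRNA and 325 in All gRNA and folds of 25.5 and 24.7. Another, chr8:128184618-128185215, had 489 and 299 reads but folds of only 6.66 and 6.80. The background around the second was 72.6 reads in No gRNA and 43.1 in All gRNA, against a genome background of 0.652 and 0.484. Of the 15 pairs, 11 were lower and 4 higher in All gRNA after scaling for depth, and the ratio of summed pileups was 0.780 (0.728 to 0.836). Of the 2254 No gRNA reads in this sum, 731, 489 and 282 came from 3 members, and the median log2 ratio of the 15 pairs was −0.16. Over all 5002 pairs of members, 48.5% were lower in All gRNA. In the strongest of 5 classes of the pileup sum, the median log2 ratio was −0.12. Across the members, 13 had a No gRNA background of 10 reads or more. Of these, 8 lay in the MYC region, 4 on chromosome 21 before TPTE, and 1 between IRX1 and ADAMTS16. Median No gRNA backgrounds were 9.12 reads in the PVT1 cluster and 3.72 in the PCAT1 cluster, against 0.86 over all members. The part of high background in the members' pileups and in the number of peaks called there was not tested.

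The next clusters held 11 members each. That between TLR4, an innate immune receptor, and BRINP1 spanned 197 kb with No gRNA folds of 4.79 to 17.7 and All gRNA folds of 4.38 to 17.8. Its summed ratio was 1.10 (0.887 to 1.37). That between PITRM1 and KLF6, a zinc finger factor, spanned 115 kb with folds of 4.01 to 17.9 and 4.55 to 15.3, and its summed ratio was 0.840 (0.692 to 1.02). A cluster of 10 members spanned 137 kb between FN1 and MREG, all inside the long non-coding RNA gene LINC00607. Its folds ran from 4.24 to 16.3 in No gRNA and from 4.72 to 15.8 in All gRNA, and its summed ratio over 8 pairs was 1.08 (0.875 to 1.34). A cluster of 10 between SV2B, a synaptic vesicle gene, and SLCO3A1, a transporter gene, had summed pileups of 289 and 246 reads at a ratio of 1.15 (0.962 to 1.36), with 7 of 10 pairs higher. Of the other clusters of 10, the one between SOX9 and SLC39A11, over LINC00511, had summed pileups of 437 reads in No gRNA and 237 in All gRNA, at a ratio of 0.730 (0.620 to 0.857) with 8 of 10 pairs lower. A cluster of 10 over DANT2, a long non-coding RNA gene of tandem repeats on chromosome X, had low folds of 4.05 to 6.83 in No gRNA and a summed ratio of 0.875 (0.716 to 1.07), with 5 pairs higher and 5 lower, and 8 of its members lay in sequence found at more than 1 place.

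**Figure D2:**
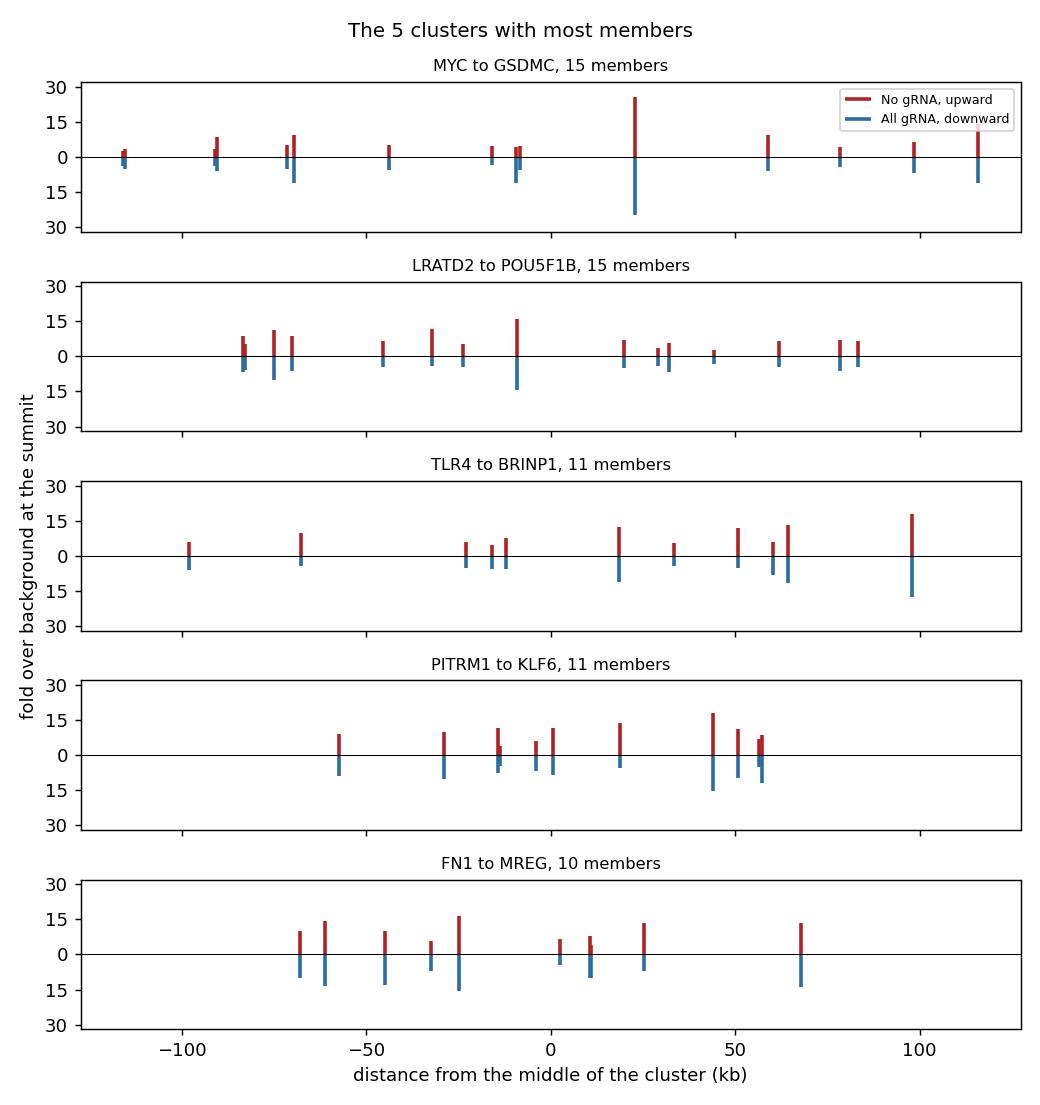
The 5 clusters with most members, each drawn by distance in kb from its middle. Upward lines give the No gRNA fold and downward lines the All gRNA fold of each member. The tallest lines in both directions belong to 1 member of the MYC to GSDMC cluster, with folds of 25.5 and 24.7.

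Over the 110 clusters with at least 5 one-to-one pairs, the summed ratio had a median of 0.951, quartiles of 0.836 and 1.07, and a range of 0.537 to 1.45. The lowest was a cluster of 6 between TRIQK and CIBAR1 (0.537, 0.392 to 0.726), in which 5 pairs were lower and 1 higher in All gRNA. The highest was a cluster of 6 between CWC22, a splicing factor gene, and UBE2E3 (1.45, 1.05 to 2.01), in which all 6 pairs were higher. A cluster of 7 between TMEM132B and TMEM132C had a ratio of 1.44 (1.21 to 1.71) with 5 pairs higher. All pairs were higher in 3 of the 110 clusters and all lower in 2. These extremes were picked out of 110 clusters after their values were seen, and their intervals are not adjusted for that choice.

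The highest member in both libraries was chr5:4058824-4059410, between IRX1, an Iroquois homeobox gene 463 kb away, and ADAMTS16, a secreted protease gene 1081 kb away. It had 485 reads at the summit in No gRNA and 287 in All gRNA, and folds of 32.4 and 29.6. Its local background of 14.0 and 8.72 reads was also high. In No gRNA, the next was chr21:5154675-5155113, with 138 and 94 reads and folds of 29.7 and 26.1, in sequence that occurs at more than 1 place in hg38. A member in an intron of NAALADL2, chr3:175386704-175387039, had 77 and 42 reads and folds of 29.1 and 21.9. A member between SLITRK6 and SLITRK5, neuronal membrane proteins, chr13:87124078-87124553, had 146 and 99 reads and folds of 28.5 and 22.3. The next, in an intron of GUCY1A2, a subunit of soluble guanylate cyclase, had 107 and 66 reads and folds of 27.8 and 20.4.

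In All gRNA, the 5 highest included 2 of these, the IRX1 and chromosome 21 members. The others were chr4:126850359-126850769 between FAT4 and INTU, with folds of 25.6 for No gRNA and 26.4 for All gRNA, a member in CSMD3 with folds of 27.7 and 26.0, and a member in CAMTA1 with folds of 26.7 and 25.6. All 8 of these members had folds of at least 20.4 in both libraries. The 3 members farthest from a protein-coding start all lay on the short arm of chromosome 21 before TPTE, between 4956 and 5393 kb from it, with No gRNA folds of 17.6, 29.7 and 7.87.

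For the comparison of heights, the 5002 members that paired with 1 All gRNA peak were used, and All gRNA pileups were divided by 0.743, the ratio of the depths of both libraries. The summits of a pair lay a median of 32 bp apart. The median log2 ratio was 0.01, with quartiles of −0.38 and 0.43. It was −0.02 over 20880 pairs of nearer peaks, −0.18 over 6376 pairs of promoter peaks and −0.11 over all 48041 pairs. Across the members, which share libraries and background, Pearson's r of log2 pileup was 0.736 and Spearman's rho was 0.673.

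More than 2-fold higher in All gRNA were 307 members, 6.14% (5.51 to 6.84%), where the background over all pairs was 4.06%. More than 2-fold lower were 227 members, 4.54% (4.00 to 5.15%), where the background was 4.55%. The share of lower members was near the background, and the higher share lay close to the 5.78% of nearer peaks. Ratios differed with height: in 5 classes of the depth-scaled pileup sum, the median log2 ratio was 0.07, 0.05, 0.04, 0.04 and −0.12 from the weakest to the strongest. Scaling by the median ratio of all pairs in place of depth moved the split of higher to lower calls from 307 and 227 to 409 and 159, and the median to 0.12.

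**Figure D3:**
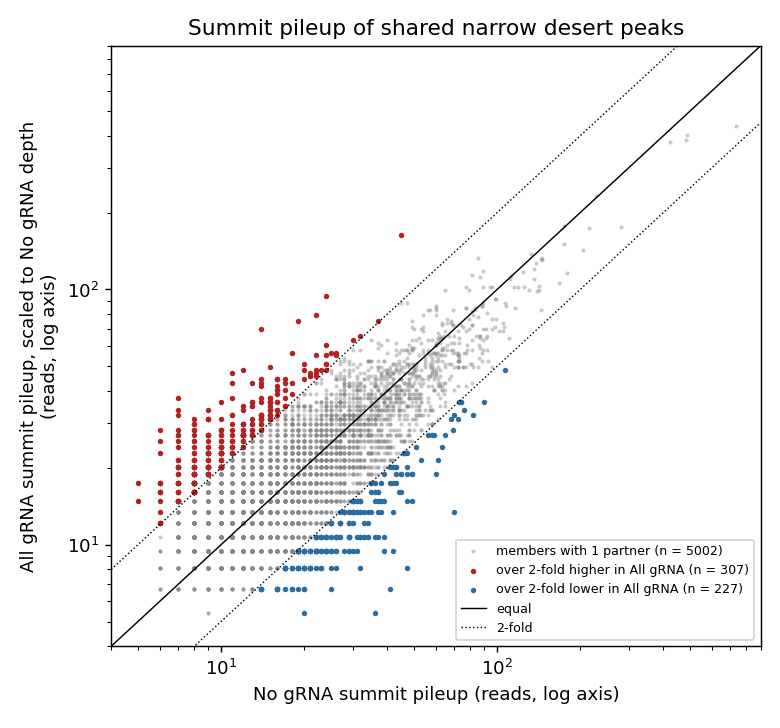
Summit pileup of each member with 1 All gRNA partner, in No gRNA (x axis, reads, log) and All gRNA scaled to No gRNA depth (y axis, reads, log). The solid line is equality and dotted lines mark 2-fold. Most of the 5002 points lie between the dotted lines, with 307 above and 227 below.

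Among pairs with at least 40 reads in total, the largest ratio belonged to a member between ST3GAL1, a sialyltransferase gene, and ZFAT, with 14 reads in No gRNA and 52 in All gRNA. Its depth-scaled ratio was 5.00 (2.73 to 9.77). The next were a member in LINC00504, 219 kb from the translational regulator gene CPEB2 (11 and 35 reads, ratio 4.28), and a member between KLF4, a zinc finger factor of epithelial cells, and ACTL7B (12 and 36 reads, ratio 4.04). A member beyond B3GAT1 near the end of chromosome 11 had 19 and 56 reads, and its 32-base stretches occurred at 4 or more places in hg38. A member between CTNNA2 and SUCLG1 had 24 and 70 reads, a ratio of 3.92 (2.44 to 6.53). All 5 were present in both libraries with folds of at least 7.26 in No gRNA. The summits of these 5 pairs lay 4 to 97 bp apart, the farthest for the B3GAT1 member.

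The lowest ratio belonged to a member in CIBAR1-DT between TRIQK and CIBAR1, with 36 reads in No gRNA and 4 in All gRNA, 0.150 (0.0387 to 0.417). The summits of this pair lay 224 bp apart, so the pileups were read at different places in the peak. Also among the lowest, a member between ZNF608 and GRAMD2B had 41 and 5 reads, one in ARL15, a small GTPase gene, had 47 and 6, and one in B3GALT1, a galactosyltransferase gene, had 42 and 7.

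By flanking gene, the 70 listed genes with 5 or more members had median log2 ratios between −0.57 and 0.49, under 0 for 32 of them and, when scaled by the median ratio of all pairs, for 18. Over all 5002 pairs of members, 48.5% were lower in All gRNA before that scaling. Among the lowest were ETS1 (−0.57, 6 of 7 pairs lower) and TFAP2A, a transcription factor of ectoderm and breast epithelium (−0.40, 12 of 20 lower). The highest were ZFHX3 (0.49, 6 of 7 higher), ID4 (0.49, 5 of 6 higher) and DPP10 (0.43, 8 of 11 higher). CDH10 had 0.35, with 14 of 17 higher. Of the 11 EMT and mesenchymal genes with 5 or more members, 8 had a median under 0. When scaled by the median ratio of all pairs, 4 did, namely INHBA, TGFBR2, HGF and TWIST1. Before that scaling, 11 of 19, 9 of 13, 6 of 9 and 3 of 6 of their pairs were lower. Among the others, CDH2 had −0.11 with 11 of 16 lower, ZEB2 had −0.02 with 14 of 28 lower, and FN1 had 0.11 with 4 of 8 lower. These extremes were picked out of 70 genes after their values were seen, and 1 library per group gives no spread to set them against.

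Motifs were searched on both strands within 100 bp of the No gRNA summit. AP-1 was the most frequent of the 10, at 1812 members, 35.2% (33.9 to 36.5%). It was found in 31.9% of nearer peaks, 7.05% of promoter peaks and 23.5% of all peaks on these chromosomes. The difference between members and nearer peaks was 3.37 percentage points (1.93 to 4.83). RUNX (TGTGGT) was found in 18.8% of members, TEAD (GGAATG) in 17.8%, CEBP (TTGCNNAA) in 16.1% and FOX (TGTTTAC) in 5.07%. Shares in nearer peaks were 17.6%, 16.8%, 14.2% and 4.49%. All 5 factors bind distal elements of many cell types, and the intervals of the TEAD and FOX differences to nearer peaks include 0. The patterns differ in length, and how often each would match by chance was not tested.

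Motifs of promoters were scarce. The GC box GGGCGG bound by SP factors was found in 3.15% of members, 6.63% of nearer peaks and 54.2% of promoter peaks. The ETS site CCGGAAG was found in 0.972%, 1.40% and 10.3%. The median GC content of the window was 41.8% for members, 45.3% for nearer peaks and 65.7% for promoter peaks, and the median number of CpG was 1, 2 and 17. The CTCF core consensus was found in 38 members, 0.739% (0.539 to 1.01%), against 2.25% of nearer peaks, a difference of −1.51 points (−1.80 to −1.18). It was searched as 1 pattern without mismatches, so sites that depart from it were not counted, and 2.02% of all peaks on these chromosomes matched. The share of members bound by CTCF was not tested. Weighting the nearer peaks to the GC content of the members left differences of 2.40 points for AP-1 and −0.823 for CTCF, and turned that of CEBP from 1.85 to −0.234. The GC weighting was chosen after seeing the data.

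**Figure D4:**
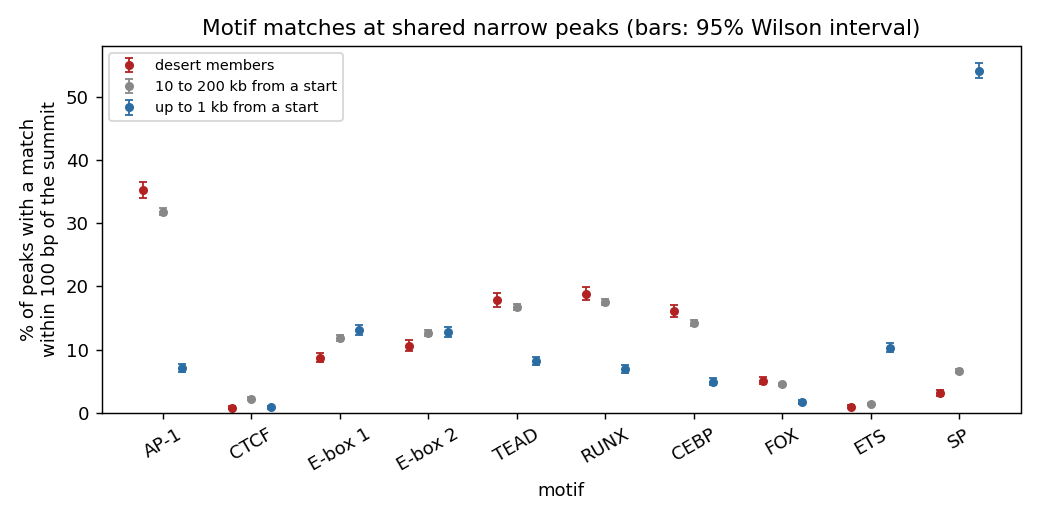
Share of peaks (%) with a match within 100 bp of the No gRNA summit for 10 motifs, in members, nearer peaks and promoter peaks, with 95% Wilson intervals. E-box 1 is CAGGTG and E-box 2 is CAGCTG. AP-1 stands at 35.2% of members against 7.05% of promoter peaks, and SP at 3.15% against 54.2%.

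Taller members carried AP-1 more often. In 5 classes of the No gRNA fold the share was 27.1, 31.1, 35.9, 36.8 and 45.2% from the lowest to the highest. Members with a match had a median fold of 10.0, and those without one 8.70. The share hardly moved with distance from a start, at 35.1% between 200 and 300 kb and 34.2% (30.1 to 38.6%) over 1 Mb. CAGGTG went the other way with height, from 11.2% in the lowest class to 6.92% in the highest. A second AP-1 match was present in 195 members, and the largest number in 1 window was 7.

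AP-1 matches were not centred on the summit. Of 3038 matches within 200 bp of the No gRNA summit in paired members, 83.0% lay on the side of lower coordinates, with a median offset of −66 bp and quartiles of −106 and −22 bp. The median was −67 bp from the All gRNA summit and −70 bp from the middle of the No gRNA peak. In nearer peaks it was −68 bp from the No gRNA summit, and for the CTCF core consensus in nearer peaks it was −72 bp over 690 matches. For CTCF in members it was −71 bp over 60 matches. CAGGTG showed no such offset, with a median of 21 bp and 45.6% of matches below the summit in members, and a median of 30 bp in nearer peaks. The cause of the offset of AP-1 and CTCF was not tested. A window from 175 bp below to 25 bp above the summit, chosen after seeing this, held an AP-1 match in 44.7% of members.

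**Figure D5:**
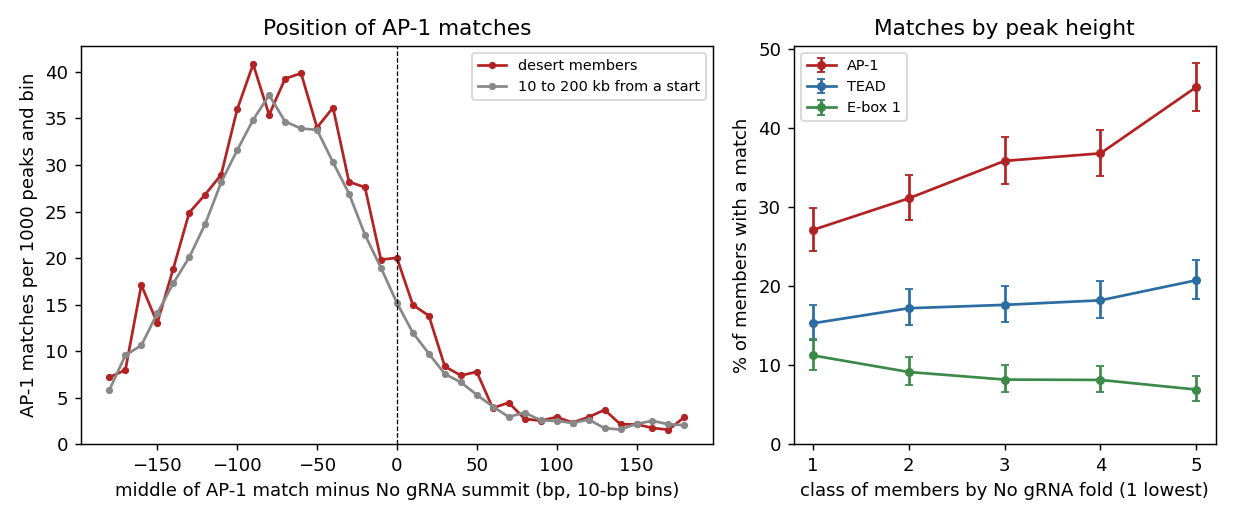
Left, AP-1 matches per 1000 peaks by position relative to the No gRNA summit in 10-bp bins, for members and nearer peaks, which both peak below the summit. Right, share of members (%) with a match in 5 classes of No gRNA fold with 95% Wilson intervals, which from the lowest to the highest class goes from 27.1 to 45.2% for AP-1, from 15.3 to 20.8% for TEAD and for CAGGTG (E-box 1) from 11.2 to 6.92%.

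CAGGTG, the E-box that ZEB1 binds, was found in 449 members, 8.73% (7.99 to 9.53%), against 11.8% of nearer peaks and 13.1% of promoter peaks. The difference to nearer peaks of −3.08 points (−3.94 to −2.17) came to −0.631 when they were weighted by GC content. Among the paired members, 430 had a match and 4572 had none, a split made after the values were seen. Of those with a match, 39, or 9.07%, were more than 2-fold higher in All gRNA, against 5.86% of those without, where 4.06% of all pairs were so. The difference was 3.21 points (0.737 to 6.36). More than 2-fold lower were 2.79% and 4.70%. The median log2 ratios were 0.09 and 0.01. The DANT2 cluster held 9 of the members with CAGGTG, and leaving out members in multi-copy sequence gave a difference of 3.48 points (0.879 to 6.82). Such intervals, here and for nearer peaks, count peaks of 1 library per condition, which are not replicates of a condition. The cause of the difference was not tested.

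In nearer peaks 9.29% with a match and 5.31% without one were more than 2-fold higher, a difference of 3.98 points (2.84 to 5.24). For CAGCTG, an E-box of other factors that differs in the central bases, the difference was −0.137 points (−2.01 to 2.31) in members and −0.317 points (−1.20 to 0.676) in nearer peaks. The median GC content was 46.3% in members with CAGGTG and 41.3% in those without. Within 5 classes of GC content, from the lowest to the highest, the difference was −2.72, 6.55, 1.45, 1.60 and 4.75 points. The intervals were −6.03 to 11.1, −0.0429 to 19.2, −3.42 to 10.4, −2.06 to 7.96 and 0.440 to 10.5. Only that of the highest class excluded 0. The lowest class held 29 members with a match and the highest 177. Over all paired members the difference was −0.517 points (−3.08 to 3.71) in a window of 50 bp either side of the summit. Within 200 bp it was 2.56 (0.747 to 4.68), and 4.92 (2.21 to 8.33) in the window from 175 bp below to 25 bp above. Windows of 3 members with CAGGTG among the higher ratios are shown with the match in capitals. The first had 15 reads in No gRNA and 37 in All gRNA, at a ratio of 3.32 (1.78 to 6.51), and lay between TMEM132B and TMEM132C, with summits 129 bp apart.
TMEM132B to TMEM132C, chr12:127238280-127238480: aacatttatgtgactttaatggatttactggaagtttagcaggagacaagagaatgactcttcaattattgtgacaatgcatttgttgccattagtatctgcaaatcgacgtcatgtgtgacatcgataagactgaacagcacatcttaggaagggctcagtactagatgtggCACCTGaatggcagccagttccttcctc
chromosome 2 member, chr2:13821398-13821598: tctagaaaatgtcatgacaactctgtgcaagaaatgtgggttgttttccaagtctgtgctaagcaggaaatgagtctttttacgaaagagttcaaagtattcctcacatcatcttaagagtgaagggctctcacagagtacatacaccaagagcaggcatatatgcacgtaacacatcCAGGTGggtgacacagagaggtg
chromosome 11 member, chr11:29261140-29261340: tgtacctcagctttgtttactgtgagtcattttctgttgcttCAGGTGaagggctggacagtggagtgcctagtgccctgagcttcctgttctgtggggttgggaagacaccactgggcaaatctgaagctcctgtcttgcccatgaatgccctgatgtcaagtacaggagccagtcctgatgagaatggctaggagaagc

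The members on chromosomes 2 and 11 had folds of 11.2 and 10.3 in No gRNA and 19.5 and 18.9 in All gRNA. In the windows on chromosomes 12 and 2 the match stands above the summit, and in that on chromosome 11 below it.

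Some members could not be placed with certainty. In 225 members, 4.37% (3.85 to 4.97%), 3 stretches of 32 bases at the summit all occurred at more than 1 place in hg38, and 44 of these lay on chromosome 9, 33 on chromosome 2 and 32 on chromosome 21. The share was 3.51% for nearer peaks. How multiply mapping reads were placed is not given in the sources used here. Without these members, the share inside gene bodies was 14.9%, in clusters of 3 or more 38.5% and with an AP-1 match 35.8%.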

How the data were processed

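ATAC-seq peak lists of 2 libraries of SUM159 cells were used, 1 for No gRNA and 1 for All gRNA. Per the labels and methods, the authors trimmed reads with fastp, aligned them with Bowtie2 to hg38, took out duplicates, the mitochondrial chromosome and an exclusion list with SAMtools and bedtools, and called peaks in each library with MACS2 without a control. The methods state reads shifted and extended to 150 bp, whereas no peak was shorter than 200 bp and all local backgrounds were whole multiples, within 0.05, of 1 read in a 200-bp window over 10000 bp. Tool versions are not given in the sources used here. The deposited columns hold the fold enrichment at the summit (a linear ratio), the −log10 p-value, the −log10 q-value and an integer score made from the latter, which was not used.

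Pileup and local background were solved from the deposited fold and −log10 p of every peak (Poisson, 1 read added in the fold), which was first tested on simulated data. Depth was taken from the lowest background. It corresponds to about 8800000 counted reads in No gRNA and 6540000 in All gRNA with a 200-bp window, or 11730000 and 8720000 with 150 bp. Whether 1 or both ends of a fragment were counted is not given in the sources used here. Where both were, counts are not independent. Genes and transcript starts came from GENCODE 44 on hg38 and sequence from the hg38 genome. Shares have Wilson intervals, differences of shares Newcombe intervals and pileup ratios exact conditional binomial intervals, all at 95%. Only members overlapping 1 All gRNA peak that overlapped no other No gRNA peak entered the ratios. Clusters joined summits up to 50 kb apart, and a flanking gene has the nearest protein-coding start on its side. Sequence was called multi-copy when each of 3 stretches of 32 bases at the summit occurred at more than 1 place in hg38. Python 3.11.15, pandas 2.3.3, scipy 1.17.1 and statsmodels 0.14.6 were used.

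Groups came from the labels, and with 1 library a group no test between them was made. The members, motifs and gene lists were chosen with earlier results of these data known. The text names the 5 highest members of each list, the 5 highest and 5 lowest ratios among pairs with at least 40 reads, the 3 farthest members, the 5 largest clusters, members at the limits of the rule, the gene intervals with most members and listed genes flanking 5 or more. Some of the regions and genes this rule names are not reported here. Other clusters, gene bodies and windows named were chosen after their values were seen. Alternatives covered the distance, width, overlap, q, gap, window, scaling and annotation.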

Additional observations from a re-analysis of the deposited data

How the results depend on the processing

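No paired analysis was possible because there was only 1 library in each condition, and no replicate could be left out. Of 72 alternative values for 22 results, 41 moved by less than their interval or by less than 1.5 times for a count. The number of members was 9175 over 100 kb from a start, 1735 over 500 kb and 2440 with −log10 q at or above 10 in the peaks of both libraries. The share of narrow desert peaks found in both lists was 61.5% with −log10 q at or above 5 and 62.8% with overlap of at least 50% of both peaks. The share in protein-coding gene bodies was 23.3% over 100 kb, 5.24% over 500 kb and 7.26% with the starts of all transcripts. Within 5 kb of a long non-coding RNA start lay 10.7%. Clusters of 3 or more held 17.7% at gaps of 20 kb and 61.6% at 100 kb. The median log2 ratio was 0.12 when scaled by the median ratio of all pairs, with 409 members more than 2-fold higher and 159 lower. It was 0.0498 with −log10 q at or above 10. Within 50 and 200 bp of the summit the AP-1 share was 17.5% and 49.9%, the CTCF share 0.253% and 1.11% and the CAGGTG share 4.04% and 17.6%. In the window from 175 bp below to 25 bp above, AP-1 came to 44.7%, CTCF to 1.03% and the CTCF difference from nearer peaks to −2.03 points. Weighting nearer peaks by GC content gave differences of −0.823 points for CTCF and −0.631 for CAGGTG, and turned CEBP from 1.85 to −0.234. Under that weighting the FOX difference, whose interval includes 0, went from 0.587 to −0.0529. The causes of these shifts were not tested. Depth limits the ratios of single members, since the median member had 17 reads in No gRNA and 13 in All gRNA.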
